A study of Mus musculus with 2 samples.

Results

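Genes of the two-cell-like state of mouse embryonic stem cells were examined on 2 arrays, 1 from shLincU cells and 1 from shCtrl cells. The 10 genes are Zscan4b, Zscan4c, Zscan4f, Tcstv3, AF067061, Usp17la, Usp17lc, BB287469, Tmem92 and Zfp352. They were represented by every non-control probe that carries one of these gene names, which gave 15 probes among 56572 (10 of 37058 gene or transcript names). Of the 15 probes, 12 were well above background on both arrays, by the scanner software's flag, and are called measured here, against 31898 probes of the whole array; each of the 10 genes had at least 1 measured probe. The genes were picked with the differences between these same 2 arrays known, so their differences describe the arrays and support nothing beyond that.

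The cells were of the mouse line 46C. The shLincU cells are labelled as a knockdown of the long noncoding RNA LincU by a short hairpin, and the shCtrl cells carry a control hairpin according to their genotype label, although their title calls them wild type. Both were grown in 15% serum with LIF at 1000 U/ml on feeder cells that were taken off before harvest, and their total RNA, carrying the dye Cy3, was put on Agilent arrays of 1 colour that lay on 1 slide and were read in 1 scan. With 1 array per group there was no replicate check and no test, and the differences below carry only a spot error computed by the scanner software. No probe was named LincU, so the knockdown itself could not be checked.

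A small share of cells in a culture of mouse embryonic stem cells passes through a transient state that resembles the blastomeres of the two-cell embryo. In that state the transcription factor DUX and the long terminal repeats of the MERVL retrovirus drive genes that are otherwise switched on at zygotic genome activation, among them the Zscan4 cluster, the Tcstv genes and members of the Usp17-like family. Several of these genes lie in tandem clusters of near-identical copies, so a probe for one copy can bind transcripts of another.

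Probes of 3 families are shown with a near copy that stands for another gene, since such copies limit how far single genes can be told apart. They are 60-base oligonucleotides, written 5′ to 3′, and capitals mark the longest run that both probes of a pair share.
Zscan4c, A_55_P2019533, chr7:11595751-11595810, plus strand, mm9: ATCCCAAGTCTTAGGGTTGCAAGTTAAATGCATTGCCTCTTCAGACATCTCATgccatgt
Zscan4a, A_55_P2007016, chr7:11379679-11379738, minus strand, mm9: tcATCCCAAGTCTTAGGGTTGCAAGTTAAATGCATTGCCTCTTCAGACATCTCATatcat
Usp17lc, A_55_P2002802, chr7:110568320-110568379, plus strand, mm9: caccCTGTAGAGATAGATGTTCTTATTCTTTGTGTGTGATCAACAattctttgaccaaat
AK155468, A_55_P2082703, chr7:111802099-111802158, plus strand, mm9: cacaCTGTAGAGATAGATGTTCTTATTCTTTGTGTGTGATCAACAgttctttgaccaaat
AF067061, A_55_P2056719, with no position given by the array: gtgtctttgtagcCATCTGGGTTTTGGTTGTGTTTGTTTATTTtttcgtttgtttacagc
Gm20767, A_55_P1982638, with no position given by the array: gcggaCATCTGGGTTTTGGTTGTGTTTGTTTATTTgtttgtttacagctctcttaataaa
The run was 53 bases in the Zscan4 pair, with 2 mismatches over the 58 bases that overlap, 41 bases in the Usp17lc pair, with 2 mismatches over 60, and 30 bases in the AF067061 pair, with 13 mismatches over 52. By the RefSeq accessions that the array lists for a probe, 7 of the 15 probes name another gene as well. The Zscan4b probe lists Zscan4c, Zscan4d and Zscan4f, the Zscan4f probe lists Zscan4a, Zscan4c and Zscan4d, the Tcstv3 probe lists AF067061, and the BB287469 probe lists Gm5662. Values for these families are therefore values of probes, not of single copies.

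The probes of Zfp352, a zinc finger gene of the early embryo, and of Tmem92 are shown for contrast, since they carry no such run.
Zfp352, A_55_P2060343, chr4:89892270-89892329, plus strand, mm9: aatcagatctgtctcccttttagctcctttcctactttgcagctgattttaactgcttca
Tmem92, A_65_P19881, chr11:94638552-94638611, minus strand, mm9: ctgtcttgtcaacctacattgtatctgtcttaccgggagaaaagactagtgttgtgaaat
Neither shares a run of at least 16 bases with a probe named for another gene.

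The shCtrl array was the brighter one. The 75th percentile of processed intensity was 420 in shLincU cells and 626 in shCtrl cells, a ratio of 1.49 (shCtrl over shLincU), and each level below is log2 of the processed intensity minus this percentile. A difference is the level on the shLincU array minus that on the shCtrl array, so it is relative to the bulk of probes. Of all measured probes 85.8% differed by no more than 0.5, their median was 0.02, and the detected share of probes was 57.9% for shLincU and 60.9% for shCtrl. Probes kept with 10 spots each, 183 in all, had a median SD of 0.041 between the differences of their spots, which is spread within the slide and not between cultures.

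Of the 12 measured probes, 11 were at least 2-fold lower on the shLincU array and none was higher by that size. Among all measured probes 1.43% were at least 2-fold lower and 1.16% at least 2-fold higher; because the genes were chosen on this contrast, nothing is read from the count. The median difference of the 12 probes was -1.96 and the mean -1.84. The 11 lower probes lay between -2.36 and -1.71, and Zfp352 stood alone at 0.31. All 11 were also at least 3-fold lower, a size that 0.451% of all measured probes reached. In RNA from a whole culture, fewer cells in the two-cell-like state and less of these RNAs per cell cannot be told apart.

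**Figure D1:**
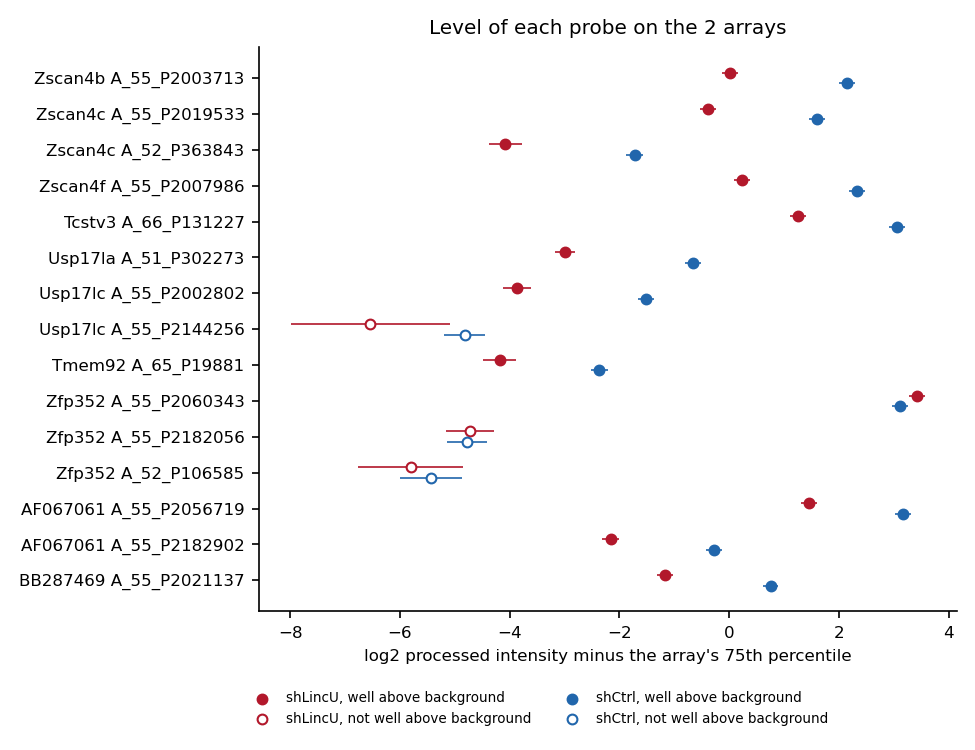
Level of each of the 15 probes on the shLincU array (red) and the shCtrl array (blue), as log2 processed intensity minus the 75th percentile of the array; horizontal lines are the error the scanner software gives each spot. Filled points are well above background, and of the 12 probes filled on both arrays 11 lie further left for shLincU, while the Zfp352 probe lies slightly further right.

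Zscan4c and Zscan4f encode proteins with a SCAN domain and zinc fingers. The Zscan4 family marks the two-cell-like state and takes part in telomere lengthening in embryonic stem cells. The Zscan4b probe (chr7:11486107-11486166, minus strand, mm9) had a processed intensity of 425 in shLincU cells and 2759 in shCtrl cells. After scaling it was 4.36-fold lower in shLincU cells, a difference of -2.12 with a scanner error of 0.20. Its unscaled ratio, shCtrl over shLincU, was 6.49, which includes the brightness of the whole array.

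Zscan4c had 2 measured probes. The first, A_55_P2019533, read 320 in shLincU cells and 1897 in shCtrl cells, a difference of -1.99 ± 0.21 (scanner error). The second, A_52_P363843 (chr7:11594425-11594484, plus strand, mm9), was dim, at 24.9 in shLincU cells against 189 in shCtrl cells, a difference of -2.36 ± 0.33. Both probes were lower on the shLincU array, and they differed from each other by 0.36, close to the error of the dimmer one. The array lists Zscan4a for both and Zscan4d for the second as well, so neither is a reading of Zscan4c alone.

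The Zscan4f probe (chr7:11987608-11987667, plus strand, mm9) read 492 in shLincU cells and 3130 in shCtrl cells. Its difference was -2.09 ± 0.20, or 4.27-fold lower in shLincU cells. All 4 probes of this family thus lay within -2.36 to -1.99. The pseudogene Zscan4a, chosen here because its probe is nearly that of Zscan4c, read 284 in shLincU cells and 1900 in shCtrl cells, a difference of -2.17. The probe named Zscan4d was not well above background on either array and gives no difference.

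Tcstv3 and AF067061 lie in one cluster on chromosome 13 in RefSeq. Tcstv3 belongs to the two-cell-stage variable group genes, first found as transcripts of the two-cell embryo. Its probe (chrUn_random:3141-3200, minus strand, mm9) read 1003 in shLincU cells and 5199 in shCtrl cells. That is 3.48-fold lower in shLincU cells, with a difference of -1.80 ± 0.20. TC1593528, an array entry chosen because its probe has 4 mismatches over 58 bases to that of Tcstv3, read 565 in shLincU cells and 2983 in shCtrl cells, a difference of -1.83.

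AF067061 was read by 2 probes. The probe A_55_P2056719 had an intensity of 1149 in shLincU cells and 5599 in shCtrl cells, a difference of -1.71 ± 0.20. The probe A_55_P2182902 (chrUn_random:3551-3610, minus strand, mm9) had 93.8 in shLincU cells and 519 in shCtrl cells, a difference of -1.89 ± 0.21. The probes were both lower on the shLincU array and their differences were 0.18 apart, less than the error of either. The Gm20767 probe, chosen for its likeness to the first, read 770 in shLincU cells and 3645 in shCtrl cells, a difference of -1.67. Tcstv1, of the same group, was well above background on the shCtrl array only, which makes it at least 2-fold lower in shLincU cells.

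Usp17la and Usp17lc encode deubiquitinating enzymes, which remove ubiquitin from proteins and were first described in mouse as cytokine-induced genes of blood cells. The Usp17la probe (chr7:112011037-112011095, plus strand, mm9) read 52.8 in shLincU cells and 397 in shCtrl cells, a difference of -2.34 ± 0.24. It was 5.05-fold lower in shLincU cells. The Usp17lc probe A_55_P2002802 read 28.7 in shLincU cells and 218 in shCtrl cells, a difference of -2.35 ± 0.30. Both were lower in shLincU cells by less with the normexp background correction, at -1.42 for Usp17la and -1.11 for Usp17lc.

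The second Usp17lc probe could not be read. A_55_P2144256 (chr7:110567420-110567479, plus strand, mm9) had 4.51 in shLincU cells and 22.1 in shCtrl cells and was not well above background on either. A probe for Usp17ld shares a run of 41 bases with it, shown in capitals, with 4 mismatches over 60.
Usp17lc, A_55_P2144256: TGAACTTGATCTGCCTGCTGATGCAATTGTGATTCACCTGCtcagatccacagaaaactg
Usp17ld, A_55_P2002988: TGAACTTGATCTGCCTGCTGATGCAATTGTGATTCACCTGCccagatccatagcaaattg
The Usp17ld probe was dim, at 24.8 in shLincU cells and 45.6 in shCtrl cells, a difference of -0.30 ± 0.36. Its shCtrl level was -3.78, while the lowest detected level on the shLincU array was -4.34. A measured difference of the size of the readable Usp17lc probe was therefore out of its reach, and the 2 are not compared. AK155468, whose probe is nearly that readable one, read 32.0 in shLincU cells and 271 in shCtrl cells, a difference of -2.51. Usp17lb was well above background on the shCtrl array only and was at least 2.60-fold lower in shLincU cells, while Usp17le was not well above background on either array.

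BB287469 and Tmem92 were each read by 1 probe, and the probe of BB287469 also lists Gm5662. The BB287469 probe (chr12:89058287-89058346, plus strand, mm9) read 187 in shLincU cells and 1055 in shCtrl cells, a difference of -1.92 ± 0.21, or 3.79-fold lower in shLincU cells. Tmem92 encodes a transmembrane protein whose transcript is used as a marker of the two-cell-like state. Its probe was dim, at 23.2 in shLincU cells against 121 in shCtrl cells, a difference of -1.81 ± 0.34. With the normexp background correction, which raises dim signals, the Tmem92 difference was -0.56 and that of the dim Zscan4c probe -0.93, so neither passed 2-fold there.

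Zfp352 did not share the direction of the others. Its measured probe read 4527 in shLincU cells and 5431 in shCtrl cells, which is a difference of 0.31 ± 0.20 after scaling and -0.58 when the arrays were scaled to the E1A control probes instead. With that scaling the median of all measured probes was -0.87 and that of the 12 probes -2.85. The scaling moves every probe by the same amount, so it cannot change the place of a probe relative to the bulk. The other Zfp352 probes read 15.9 in shLincU cells and 22.8 in shCtrl cells for A_55_P2182056 (chr4:89891912-89891971, plus strand, mm9), and 7.50 in shLincU cells and 14.5 in shCtrl cells for A_52_P106585 (chr4:89891441-89891500, plus strand, mm9). Neither was well above background on either array, so Zfp352 rests on 1 of its 3 probes. All 3 are listed for the same transcript, and why they differed so much in brightness was not tested.

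**Figure D2:**
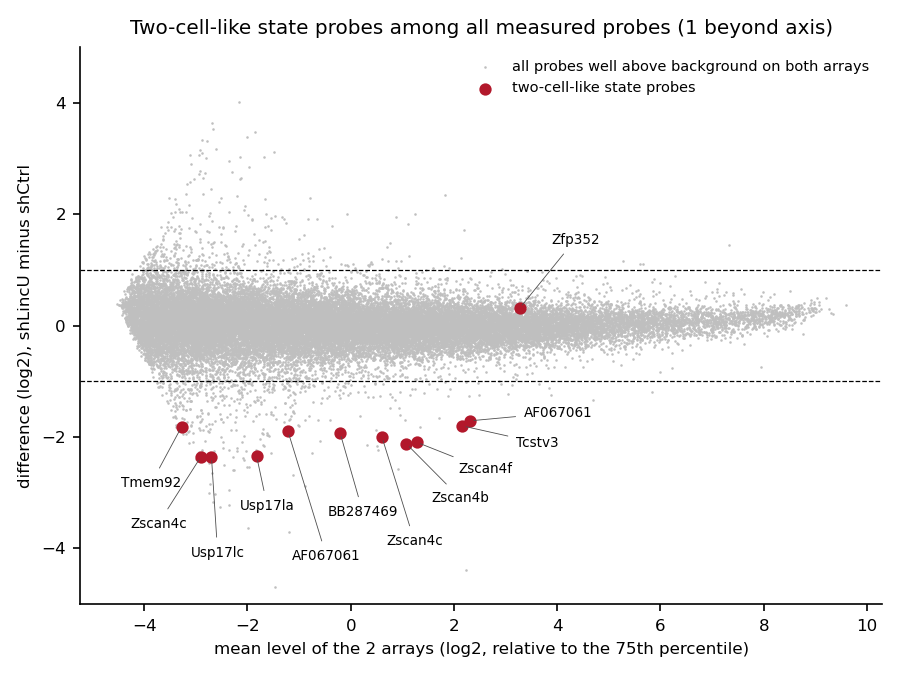
Difference between the arrays (log2, shLincU minus shCtrl) against the mean level of the 2 arrays for all 31898 measured probes (grey) and the 12 measured probes of the two-cell-like state genes (red, named); dashed lines mark 2-fold, and 1 probe beyond 5 is not drawn. The 11 lower red points lie below the lower dashed line, and Zfp352 lies inside the grey cloud.

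Set among all 31898 measured probes, 28 had a difference at or below that of the Zscan4c probe A_52_P363843 (0.0878%), 29 at or below that of Usp17lc and 30 at or below that of Usp17la. For Zscan4b the number was 50 (0.157%), for Zscan4f 53 and for the other Zscan4c probe 60. The numbers were 72 for BB287469, 89 for Tmem92, 91 for Tcstv3, and 76 and 109 for the AF067061 probes. Every one of the 11 lower probes was thus among the lowest 0.342% of the array. Zfp352 lay at the other side, with 26485 probes at or below it (83.0%).

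Spots that were 2-fold or more apart made up 4.09% of the lower rows of the slide and 1.34% of the upper rows. Of the measured probes of the set, 4 lay in upper rows, and all 4 were at least 2-fold lower, with a median of -1.94. In lower rows 7 of 8 were at least 2-fold lower, with a median of -2.01. None of the 15 probes lay beside discordant spots, which here means that at least 2 of the 14 nearest spots were 2-fold or more apart in one direction.

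A second list held 63 other genes of the two-cell embryo and two-cell-like cells, written with earlier results of these data known. On the array 46 of them had 58 probes, of which 21 probes of 19 genes were measured. Of these, 8 were at least 2-fold lower on the shLincU array, as were 1.43% of all measured probes, and none was higher by that size. Below 0 lay 18 and above it 3. The list is not separate from the set, since the Zscan4a and Gm20767 probes share runs of 53 and 30 bases with probes of the set. The median was -0.45, against 0.02 for all probes, and the range -2.26 to 0.23. The list was thus spread out, with a lower group and a larger number of probes near 0.

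The lowest of that list was Gm8300, at 47.0 in shLincU cells and 335 in shCtrl cells (-2.26), followed by Zscan4a and by a Sp110 probe at -2.08. The other measured probes of Sp110, an interferon-induced nuclear body gene, were at -0.68 and 0.23, so its probes disagreed. The remaining probes at least 2-fold lower, named after their values were seen, were Gm21319 (-1.98), Gm2022 (-1.95), Gm20767 (-1.67), Gm4340 (-1.60) and Gm10696 (-1.35). Gm2022 lies on chromosome 12 near BB287469 and read 182 in shLincU cells and 1047 in shCtrl cells. The highest were Sp110 (0.23), Duxbl1 and Duxbl2, both at 0.15.

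Many genes of the list were too dim to compare. Of the 58 probes, 25 were not well above background on either array, among them the probe of Dux, which read 8.95 in shLincU cells and 11.8 in shCtrl cells. Another 11 were detected in shCtrl cells alone and 1 in shLincU cells alone. In 6 of the 11 the bound was at least 2-fold lower, where 14.0% of all probes seen on the shCtrl array alone had such a bound. These were Spz1 (at least 6.62-fold, with 4 lower spots beside it), Usp17lb, BC061212 (2.41-fold), Gm13119 (2.33-fold), Gm12794 (2.01-fold) and Tcstv1. The 1 probe seen on the shLincU array alone was Tcl1b4, at least 2.18-fold higher, with 3 higher spots beside it; 44.9% of probes seen on that array alone had a bound of at least 2-fold.

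**Figure D3:**
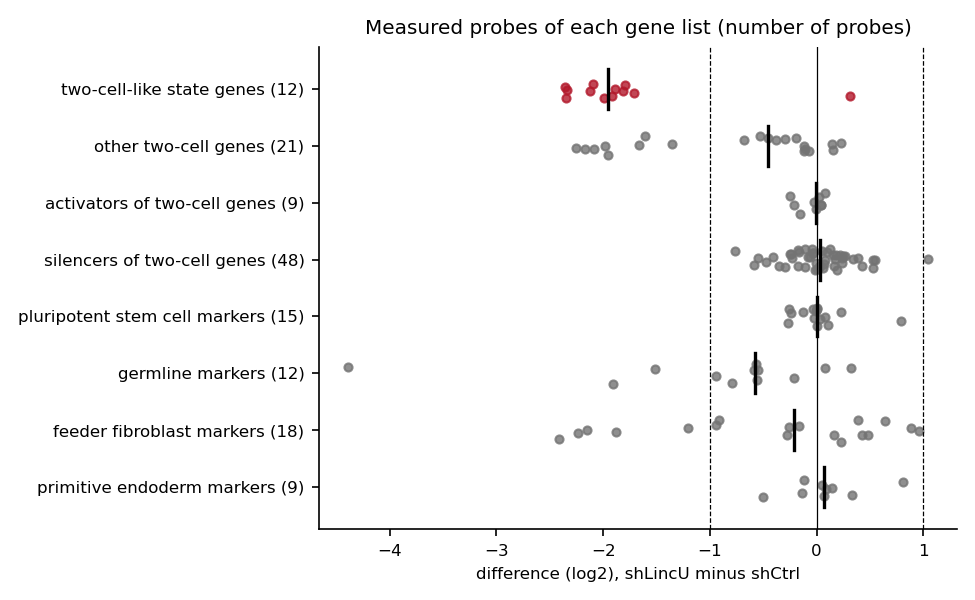
Difference (log2, shLincU minus shCtrl) of each measured probe in the set (red) and in 7 other gene lists (grey), with the number of probes in brackets; vertical bars are medians and dashed lines mark 2-fold. The set has its median at -1.96, the other two-cell genes at -0.45, and the activators, silencers and pluripotent stem cell markers near 0.

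Known activators of two-cell genes differed little. The list held Dppa2 and Dppa4, chromatin factors that switch on Dux, with Dppa3, Nelfa and Smarca5. None of its 9 measured probes was 2-fold apart in either direction, and the median was -0.0036. The lowest were Dppa3 at -0.25, Smarca5 at -0.22 and the other Dppa3 probe at -0.16, and the highest Dppa4 at 0.08, Dppa2 at 0.04 and the other Dppa4 probe at 0.04.

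Repressors of the two-cell-like state were read by 48 of 56 probes for 23 genes. None was at least 2-fold lower on the shLincU array and 1 was at least 2-fold higher; 22 lay below 0 and 26 above, with a median of 0.03. The lowest was a probe of Ncl, nucleolin, at 510 in shLincU cells and 1294 in shCtrl cells (-0.77), while the other Ncl probe was at -0.11. Both probes of Pcgf6, a subunit of a Polycomb complex that silences germline genes, followed at -0.59 and -0.55. The highest was a dim probe of Setdb1, a histone H3 lysine methyltransferase, at 41.6 in shLincU cells and 30.0 in shCtrl cells (1.04), while its other probe was at -0.29. A dim Atrx probe and Ehmt2, at 0.54 and 0.53, came next, while the other measured Atrx probes were at -0.23, -0.17 and 0.07.

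Markers of the cell type and of other cells were read beside the set. All 15 probes of 8 pluripotent stem cell markers were well above background on both arrays, none was 2-fold apart, and the median was 0.00032, from Esrrb at -0.27 to a dim Nanog probe at 0.79. The other Nanog probe was at -0.26 and Klf4 at -0.24, and Dppa5a was at 0.23 and Zfp42 at 0.10 on the high side. Primitive endoderm markers had 9 of 19 probes measured, none 2-fold apart, with a median of 0.07. They ran from Sparc (-0.50, and -0.13 for its other probe) and Dab2 (-0.12) to Gata4 (0.81), the other Dab2 probe (0.33) and Sox17 (0.14).

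Some germline and feeder markers were lower in shLincU cells as well. Of 12 measured germline probes among 15, 3 were at least 2-fold lower on the shLincU array and none higher, 10 lay below 0, and the median was -0.58. Stra8, a gene of meiotic entry, read 431 in shLincU cells and 13464 in shCtrl cells (-4.39), and the probes of Dazl, a germ cell RNA-binding protein, were at -1.91 and -1.52. Highest were a dim Tex101 probe (0.32), Taf7l (0.07) and Sycp3 (-0.21), while the other measured Tex101 probe was brighter and at -0.56. The summed level of the list, as multiples of the array's 75th percentile, was 12.1 in shLincU cells and 35.4 in shCtrl cells. Most of that gap came from Stra8, without which the sums were 11.0 in shLincU cells and 13.9 in shCtrl cells.

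Of 18 measured feeder fibroblast probes among 30, 5 were at least 2-fold lower on the shLincU array and none higher, with 10 below 0, 8 above and a median of -0.21. The lowest were Dcn (-2.41), Ccl2 (-2.24) and Lox (-2.15), and the highest a Col1a1 probe (0.96), Tagln (0.88) and Col3a1 (0.64). The other measured Col1a1 probes were at 0.16 and 0.23. The summed level was 72.4 in shLincU cells and 58.7 in shCtrl cells, carried by the 4 probes of Tagln and Acta2, genes of contractile cells. Without those 4 the sums ran the other way, at 10.6 in shLincU cells and 18.4 in shCtrl cells. In this list 10 of the 30 probes were not well above background on either array. The part that feeder or germline RNA has in the values of the two-cell-like state genes was not tested.

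The genes that lie next to the set give its surroundings. For each locus the 5 nearest measured protein-coding genes on either side were taken in RefSeq order (GRCm38.p6). Genes with the family's name, of the set and of the second two-cell list were passed over. Family was judged by gene name alone, so relatives under other names can be among the counted genes. Gm8300 (-2.26), Gm21319 (-1.98) and Gm2022 (-1.95), on chromosome 12 like BB287469, were thus not counted. This gave 55 genes, since 1 side of the Tcstv cluster had none. Of these, 1 was at least 2-fold lower on the shLincU array and none higher, with a median of -0.03 and a range of -1.16 to 0.80. The 10 genes around the Zscan4 cluster had a median of -0.06 and those around the Usp17-like cluster 0.10. The 1 lower gene was Gm11545, the counted gene nearest to Tmem92 on one side, at -1.16. It was read by 1 dim probe, with a level of -3.86 on the shLincU array. Beside the Tcstv cluster 4 of 5 genes lay below 0, with a median of -0.36 and AF067063 lowest at -0.85. Beside BB287469 the nearest counted gene on one side, Gm2016, was at -0.76.

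**Figure D4:**
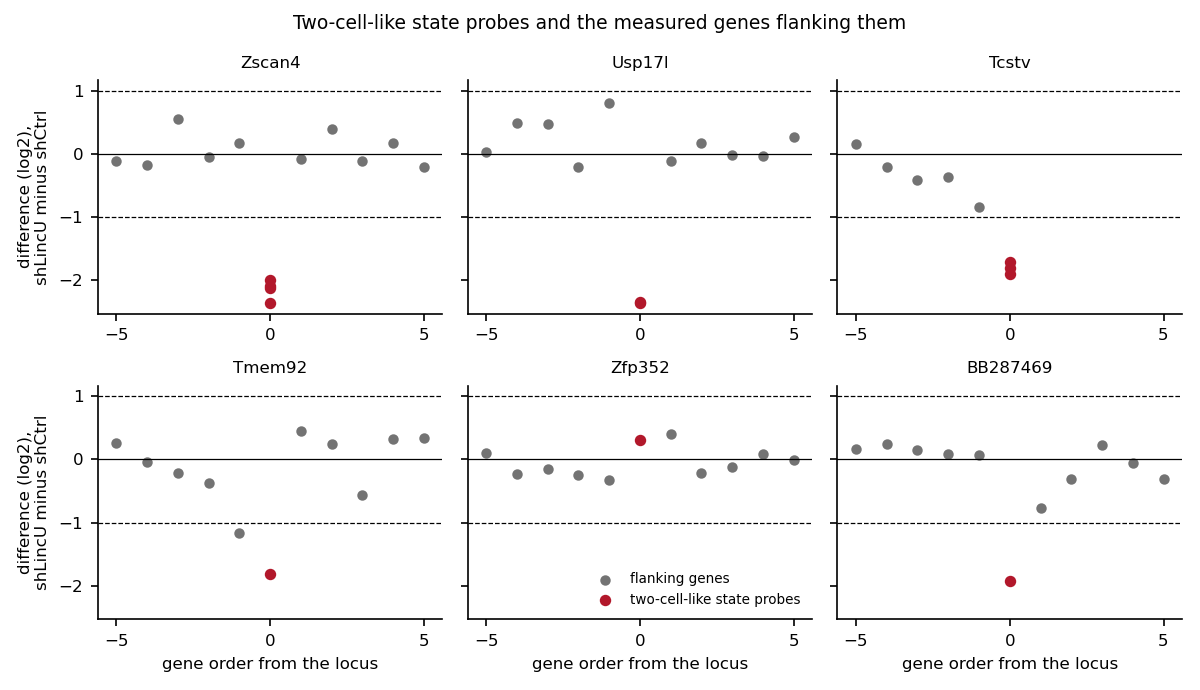
Difference (log2, shLincU minus shCtrl) of the measured probes at each locus (red, at 0) and of up to 5 measured genes on each side (grey, mean over a gene's probes), in gene order and not to genomic scale; dashed lines mark 2-fold. Most flanking genes lie between the dashed lines, and the dim Gm11545 beside Tmem92 lies below. Genes with the family's name, of the set and of the second two-cell list were left out of the flanking genes.

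Genes inside the 2 wide clusters were read as well. Between the outermost Usp17-like genes lay 12 measured genes, mostly olfactory receptor and Trim genes. Of these, none was 2-fold lower and 2 were 2-fold higher. Those were the dim genes Olfr658 (1.79) and Trim5 (1.12). Between the outermost genes of the Tcstv cluster, counted as the Tcstv genes, AF067061 and Gm20767, lay BC147527 at -1.22 and B020031M17Rik at -0.38. B020031M17Rik is also on the second two-cell list.

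Promoter windows, taken from RefSeq (GRCm38.p6), held 250 bases before the transcript start and 50 after, and were given for 8 of the 10 genes. The motifs searched, on both strands, were the DUX-type core, TGCACAC (the ZSCAN4-type core) and TATAAA (the TATA box). The DUX-type core was found on the minus strand, where the plus strand reads TGATAGAATCA, in the windows of Zscan4b, Zscan4c and Zscan4f, and on either strand in 0.207% of all 32851 windows. The TATA letters were found in those 3 and in Usp17lc, and in 13.6% of all windows. The ZSCAN4-type letters were in none of the 8 and in 4.40% of all. The 250 bases before the start of Zscan4c and Usp17lc are shown as the examples of the 2 families, with capitals for the matched letters as the plus strand reads.
Zscan4c, chr7:11005495-11005744, plus strand, GRCm38.p6: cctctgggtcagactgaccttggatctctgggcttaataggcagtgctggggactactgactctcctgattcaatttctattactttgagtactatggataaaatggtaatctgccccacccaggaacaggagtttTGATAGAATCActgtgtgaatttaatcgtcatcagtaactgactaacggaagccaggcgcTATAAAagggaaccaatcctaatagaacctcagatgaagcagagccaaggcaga
Usp17lc, chr7:103416446-103416695, plus strand, GRCm38.p6: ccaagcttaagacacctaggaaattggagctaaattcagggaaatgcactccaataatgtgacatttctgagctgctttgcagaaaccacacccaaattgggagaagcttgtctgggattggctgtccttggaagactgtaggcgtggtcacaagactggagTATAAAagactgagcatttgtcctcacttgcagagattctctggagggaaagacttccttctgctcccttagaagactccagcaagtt
In Zscan4c the DUX-type match, on the minus strand, spanned positions -114 to -104 from the start and TATAAA spanned -54 to -49; in Zscan4b and Zscan4f they spanned -91 to -81 and -31 to -26. In Usp17lc TATAAA spanned -88 to -83, and no 2 matches overlapped. Over 200 bases of promoter, Zscan4c and Zscan4f were 99% identical, Zscan4b and Zscan4c 95%, and Usp17lc and Usp17la 94%, while pairs from different families had 46.5% to 61%. These matches are letters in a window, and the arrays do not measure binding there.

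The values of the 11 lower probes were set beside those from other processing. They lay between -2.36 and -1.68 after quantile normalization, between -2.38 and -1.70 after cyclic loess, and between -2.36 and -1.68 in the authors' deposited table. With normexp they lay between -2.01 (Zscan4f) and -0.56 (Tmem92). Zfp352 was 0.33 after quantile normalization and 0.33 in the authors' deposited table.

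**Figure D5:**
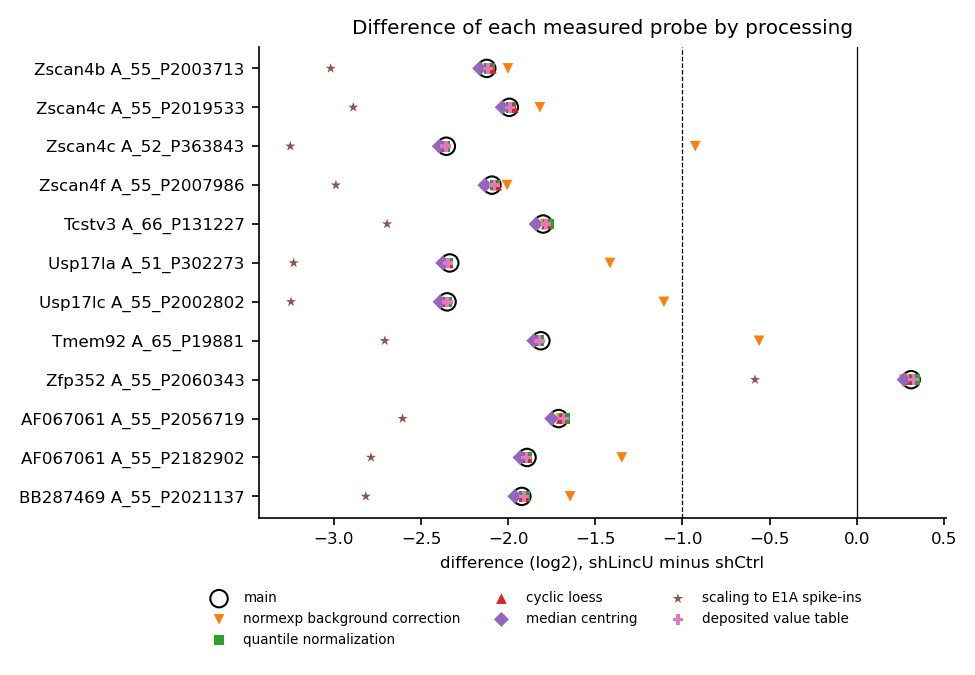
Difference (log2, shLincU minus shCtrl) of each of the 12 measured probes under the main processing (open circles) and 6 other ways of processing; the dashed line marks 2-fold lower. The 11 lower probes keep their side of 0 under each, the dim ones move towards 0 with normexp, and scaling to E1A controls moves all probes to the left.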

How the data were processed

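The 10 genes and all gene lists were chosen with earlier results of these data known. The authors deposited 1 scanner file per array and 1 value table. Per the file headers and the submitters' processing notes, intensity values came from Agilent Feature Extraction 10.7.1.1, which subtracted a spatially detrended background and removed a multiplicative trend within the array. Detection, saturation and outlier calls are other columns of the deposited files, coded 0 or 1. The deposited table of log2 values was used as an alternative; how it was normalized is not stated in the labels or headers.

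The main value was log2 of processed intensity minus the array's 75th percentile over non-control probes. Outlier spots were left out (138 for shLincU, 98 for shCtrl), and no probe was saturated. Spots of a probe were averaged, and probes were not merged, except into means for flanking genes. For a probe detected on 1 array, a lower bound was computed from the lowest detected level of the other array (-4.34 for shLincU, -4.72 for shCtrl), or its own level there if higher. Counts are by a fixed size of 2-fold with no test, and the number of arrays limits the precision.

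Genes named were all probes of the 10 genes and, of each other list, the measured probes with the 3 lowest and 3 highest differences; others were chosen by sequence or after their values were seen. Gene order and promoters came from RefSeq, in which all 10 genes were found by symbol. A spot counted as beside discordant spots where at least 2 of its 14 nearest spots were 2-fold or more apart in one direction. The calculation was tested on simulated data. Alternatives were normexp with an offset of 50, quantile normalization, cyclic loess, median centring, 8 E1A control probes, the deposited table, outlier spots kept, no background filter, another detection flag, sizes of 1.5-fold and 3-fold, and the mean of a list. Python 3.11.15, numpy 2.4.6, pandas 2.3.3, matplotlib 3.10.9, edlib 1.3.9.post1, R 4.3.3 and limma 3.58.1 were used.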

Additional observations from a re-analysis of the deposited data

How the results depend on the processing

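No paired analysis was possible because there is only 1 array of each kind, and none could be left out either. The upper or lower rows alone, and leaving out spots beside discordant ones, were added after seeing the data. The 11 lower probes were at least 2-fold lower under every other processing in which they were measured except normexp, where 9 were, and all 11 stayed negative. Several of these settings say little about the 11. Changing the filter, the detection flag or the rows used left their values as they were. Median centring, E1A scaling and keeping outlier spots moved all 11 by the same amount. The median of the set was -1.53 with normexp and -2.85 with E1A scaling, and Zfp352 was -0.58 with E1A scaling; that scaling moves all probes, since it put 10654 at least 2-fold lower and 68 higher. The count of lower probes in the set was 4 of 4 among upper rows and 7 of 8 among lower rows. For the other two-cell genes the median was -0.25 with normexp, -1.35 with E1A scaling and -0.19 with no background filter, and the mean was -0.83. Their count of 8 was 17 with E1A scaling, 21 of 58 with no background filter, 14 of 32 with the positive and significant flag, 5 of 13 among upper rows and 3 of 8 among lower rows; the cause was not tested beyond the number of probes read. Across all measured probes, normexp left 139 at least 2-fold lower and 133 higher, against 455 and 369, and no background filter gave 2155 lower and 2319 higher of 56572. The positive and significant flag gave 1317 lower and 1422 higher. Signal over background limits the dim probes, 3 of the 15 here and 25 of 58 in the other list.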
